A study of Mus musculus with 16 samples.

Results

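The 49 genes described here encode the extracellular side of Wnt signalling in adipose progenitors, the cells of fat tissue from which new adipocytes form. They were chosen by gene symbol from the 38720 rows of a gene count table: 19 Wnt ligands, 10 Frizzled receptors with the co-receptors Lrp5 and Lrp6, 4 R-spondins, the 3 R-spondin receptors Lgr4 to Lgr6, 10 secreted inhibitors (Dkk, Sfrp, Frzb and Wif1) and the feedback gene Axin2. Of the 49, 40 passed the filter on low counts, as did 16842 of all rows, and every test was adjusted over those 16842 rows.

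RNA was sequenced from progenitors of mice 4 weeks old. The 4 groups held 4 libraries each: visceral fat of Nr4a1 knockout mice (KO VAT), visceral fat of wild-type mice (WT VAT), subcutaneous fat of knockout mice (KO SAT) and subcutaneous fat of wild-type mice (WT SAT). The KO animals carried the Nr4a1tm1Jmi allele, listed as B6;129S2-Nr4a1tm1Jmi/J (Nr4a1-/-), and the WT animals were C57BL/6J. The allele is carried in all cells, so the label places the loss of Nr4a1 in no single cell type, and the knockout cannot be told apart from any 129S2 sequence that came with it. MACS, a magnetic cell sort, appears in the names of the columns, but no source used here states its markers. The labels call the 4 libraries of a group biological replicates without naming animals, litters, sex or day, so p-values measure the spread between these samples.

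Wnt proteins are lipid-modified ligands that bind a Frizzled receptor. With Lrp5 or Lrp6 as co-receptor they stabilise beta-catenin, which activates target genes with TCF/LEF factors, while other Frizzled outputs act on cell shape and calcium without beta-catenin. R-spondins bind Lgr4, Lgr5 or Lgr6 and keep Frizzled receptors on the surface, Sfrp proteins and Frzb bind Wnt ligands, and Dkk1, Dkk2 and Dkk4 bind the Lrp co-receptors. In mouse preadipocytes beta-catenin signalling, for example by Wnt10b, holds back adipocyte formation. Nr4a1 is an orphan nuclear receptor and immediate early gene.

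Total counts per library were 35761196 to 43984232 in KO VAT, 42383156 to 46293781 in WT VAT, 44181663 to 55551845 in KO SAT and 34655519 to 49437944 in WT SAT. Levels below are CPM, read counts relative to the TMM-scaled size of each library, as mean ± SD with n = 4, and effects are log2 fold changes ± SE with the adjusted p of edgeR's quasi-likelihood test. A gene was called at adjusted p under 0.05. Nr4a1 stood at 297 to 327 CPM in KO VAT against 1432 to 1649 CPM in WT VAT, and at 195 to 209 CPM in KO SAT against 997 to 1212 CPM in WT SAT, so no library went against its genotype label. The progenitor markers Pdgfra and Cd34 were at or above 470.3 CPM in every library. Of the same 10 markers, Dlk1 (8.83 to 22.8 CPM), Pparg (29.7 to 53.3 CPM) and Icam1 (51.3 to 84.4 CPM) were far lower. Dpp4 was at 97.4 to 176 CPM in the VAT libraries and 434 to 662 CPM in the SAT libraries. The 8 pericyte and smooth muscle markers summed to 4240 to 5370 CPM in KO VAT and 4600 to 4890 CPM in WT VAT. In SAT they summed to 1840 to 2580 CPM in KO and 2290 to 3900 CPM in WT. The purity of the sorted cells was not tested. Replicate 3 of WT SAT correlated least with its own group (mean r of log2 CPM 0.976) and read low in receptors such as Fzd4 (25.9 CPM, against 73.1 to 91.4 CPM in the other 3). Replicate 4 of KO VAT came next (0.981), and calls that were lost or gained without either library are given below. Because each library is bulk RNA, fewer cells of a type and less RNA per cell cannot be told apart.

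Compared per kilobase of exon, a few genes carried most of the signal within each class. Among ligands, Wnt2 had the highest level in SAT, with 33.6 CPM per kb in KO SAT and 23.8 in WT SAT, and next came Wnt5a, the usual ligand of beta-catenin-independent signalling, in KO SAT (12) and Wnt11 in WT SAT (12.1). In VAT the order changed: Wnt5a was first in KO VAT (10.7 CPM per kb) just ahead of Wnt5b (9.58) and Wnt2b (9.31), whereas Wnt2b was first in WT VAT (15.1), ahead of Wnt5a (11.8) and Wnt5b (11.7). The first 3 ligands of KO VAT lay within their SDs of each other (1.39, 1.28 and 1.90 CPM per kb). Fzd1 was the highest receptor in each of the 4 groups, at 26.8 to 29.9 CPM per kb, followed by Fzd7 and Fzd2. Lgr4 was the highest R-spondin receptor in each group, at 5.78 to 7.70 CPM per kb. Among R-spondins Rspo1 led in each group and reached 48.1 CPM per kb in KO VAT and 55.3 in WT VAT. Secreted inhibitors had the highest levels of all 49 genes: Sfrp2 stood at 434 CPM per kb in KO SAT and 389 in WT SAT, and Sfrp1 led in VAT with 109.9 in KO VAT and 105 in WT VAT.

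Summed over their members, the inhibitors reached 647 to 771 CPM in KO VAT, 590.2 to 804 in WT VAT, 1206 to 1667 in KO SAT and 1212 to 1469 in WT SAT. The summed ligands lay between 189.6 and 302 CPM in all 16 libraries, and the summed receptors between 422 and 689 CPM. The 9 genes below the filter were Wnt3, Wnt3a, Wnt7a, Wnt8a, Wnt8b, Wnt9b, Dkk1, Dkk4 and Wif1. Wnt3a had no count in any of the 16 libraries, and the highest library of any of the other 8 held 13 counts, for Wnt3 in VAT. Without the filter, Wnt3 was called higher in VAT than in SAT in KO (adjusted p = 0.0361).

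**Figure D1:**
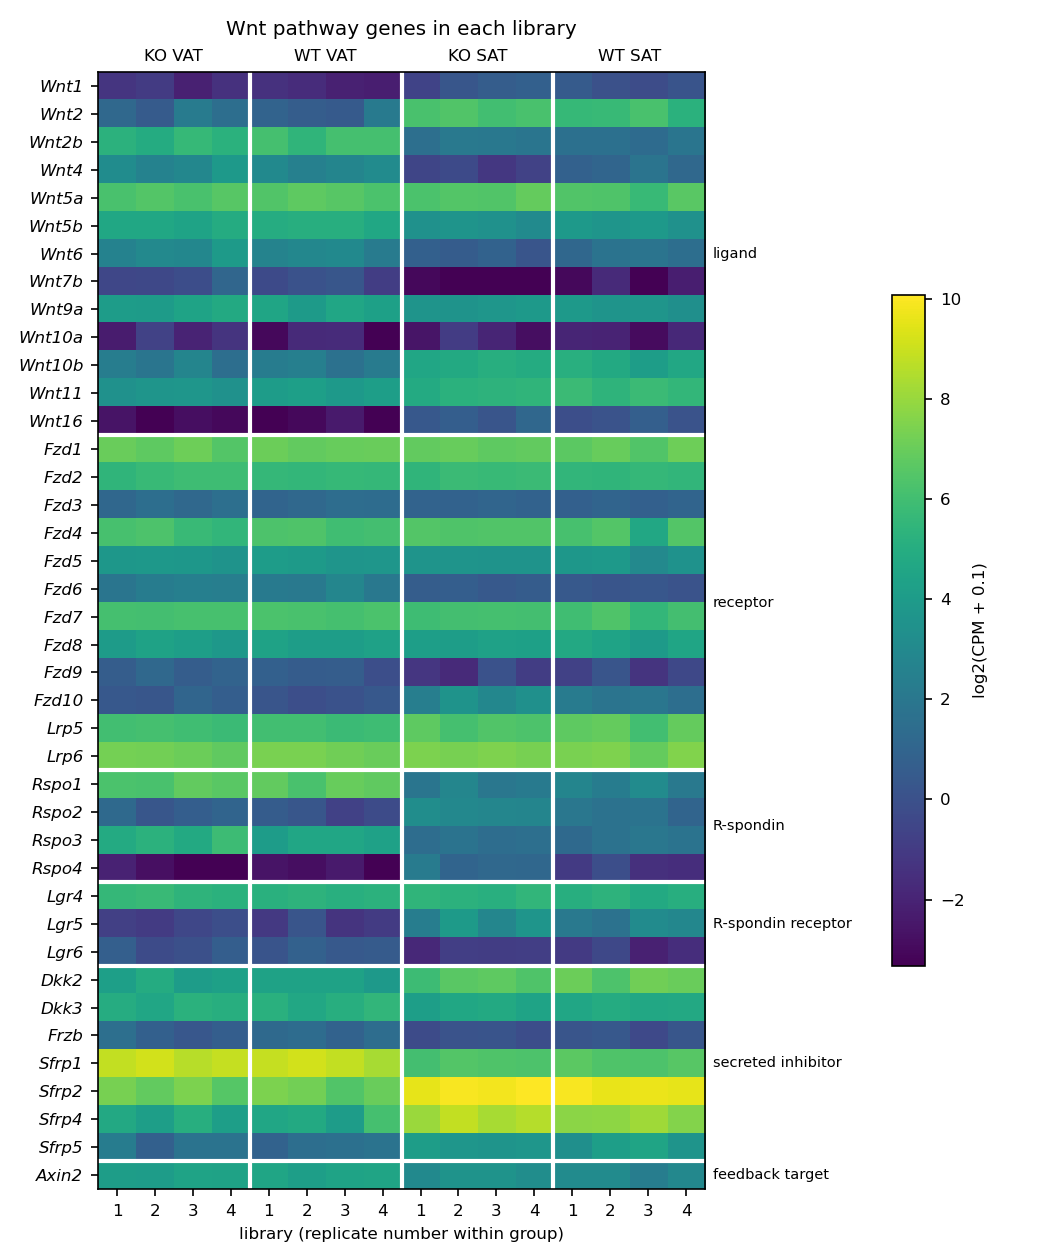
Level of each of the 40 Wnt genes that passed the low-count filter, as log2(CPM + 0.1) by colour, in 16 libraries (columns, replicates 1 to 4 of KO VAT, WT VAT, KO SAT and WT SAT) and by class (rows). Sfrp2 and Wnt2 are bright on the right, in SAT, and Sfrp1, Rspo1 and Wnt2b are brighter on the left, in VAT; the KO and WT columns of a depot look much more alike than the depots do.

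In subcutaneous progenitors, loss of Nr4a1 went with a lower ligand gene and higher receptor and R-spondin genes. Wnt4 fell 4.27-fold, and Fzd10, Rspo2 and Rspo4 rose 2.38-, 2.49- and 6.23-fold. These 4 were the calls among the 40 tested genes, 3 higher and 1 lower, or 10% of them, beside 5.89% of all tested genes called in KO against WT in SAT (3.46% higher and 2.43% lower). The median log2 fold change of the 40 was 0.06, beside -0.01 over all tested genes. By class the calls were 1 of 13 ligands, 1 of 12 receptors and co-receptors, 2 of 4 R-spondins, and none of 3 R-spondin receptors, 7 inhibitors or Axin2. At an unadjusted p under 0.05 there were 11 of 40. The share of all tested genes at that level was not counted, so the 11 cannot be read against it.

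Wnt4 (chromosome 4, 137277489 to 137299726, mm10), a ligand needed for kidney tubules and the female reproductive tract in mice, had 0.600, 0.700, 0.345 and 0.528 CPM in the 4 KO SAT libraries, against 1.71, 1.99, 3.41 and 2.24 CPM in the 4 WT SAT libraries. Every KO SAT library was below every WT SAT library. The log2 fold change was -2.09 ± 0.32 (adjusted p = 0.000797), and the call held with each of the 8 SAT libraries left out in turn (adjusted p between 0.00141 and 0.00504). Wnt6, which blocks adipocyte formation in mouse preadipocytes, had 1.63, 1.37, 1.77 and 1.06 CPM in KO SAT, against 2.12, 3.37, 3.51 and 2.74 CPM in WT SAT. Its groups did not overlap either, but its log2 fold change of -1.0 ± 0.29 just missed the threshold (adjusted p = 0.0515), and it was called without WT SAT replicate 1 (adjusted p = 0.0463), in the SAT libraries alone (0.0386) and by DESeq2 (0.00883). Wnt7b was barely detected, with 1 count over the 4 KO SAT libraries and 14 over the 4 WT SAT libraries, too few for a fold change to be read.

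Wnt4, Wnt6 and Wnt7b are also expressed by epithelia, so markers of such cells are given beside them. The summed 10 epithelial and mammary markers reached 4.07 to 5.65 CPM in KO SAT and 4.38 to 8.56 CPM in WT SAT. None of the 7 of these markers that could be tested was called in SAT, and none of the 10 was at 0 throughout either group. Schwann cell markers summed to 366 to 502 CPM in KO SAT and 421 to 764 CPM in WT SAT, with none of 6 called. Endothelial markers summed to 15.4 to 30.8 CPM in KO SAT and 11.7 to 15.6 CPM in WT SAT, and 1 of 5 was called, the VEGF receptor gene Kdr, which was higher in KO SAT (0.95 ± 0.24, adjusted p = 0.0248) with groups that did not overlap. Kdr alone gave 10.6 to 27.2 CPM of the sum in KO SAT and 6.82 to 9.85 CPM in WT SAT. The median log2 fold change of the 5 endothelial markers was -0.14. No marker of the other lists was called in SAT, and the part of these cells in the subcutaneous Wnt results was not tested.

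Fzd10 (chromosome 5, 128600844 to 128604093) encodes a Frizzled receptor. It had 5.24, 11.8, 7.24 and 10.5 CPM in KO SAT, against 4.70, 3.42, 3.71 and 2.74 CPM in WT SAT, and all 4 KO SAT libraries were above all 4 WT SAT libraries. The log2 fold change was 1.25 ± 0.24 (adjusted p = 0.00471), and the call held without each of the 8 libraries. The more abundant receptors Fzd1, Fzd2, Fzd4, Fzd7, Lrp5 and Lrp6 had log2 fold changes between -0.25 (Lrp5) and 0.30 (Fzd4), and none was called. Without WT SAT replicate 3, the log2 fold change of Fzd4 was 0.03 (adjusted p = 0.943), and Lrp5 was called at -0.42 (adjusted p = 0.0377).

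Of the 4 R-spondins, 2 passed the test in SAT. Rspo2 (chromosome 15, 43020794 to 43170826), which is needed for limb and lung development in mice, had 9.44, 7.46, 7.06 and 6.62 CPM in KO SAT, against 3.84, 3.24, 3.31 and 1.91 CPM in WT SAT. The groups did not overlap, with a log2 fold change of 1.31 ± 0.27 (adjusted p = 0.00784) and adjusted p between 0.014 and 0.0284 without each library in turn. Rspo4 (chromosome 2, 151842927 to 151874668), whose human counterpart is mutated in inherited loss of nails, had 4.73, 1.87, 2.21 and 2.11 CPM in KO SAT, against 0.388, 0.842, 0.267 and 0.236 CPM in WT SAT. These levels rest on 469 counts in KO SAT and 68 in WT SAT. The groups did not overlap, with a log2 fold change of 2.64 ± 0.56 (adjusted p = 0.0101), and KO SAT replicate 1 was above the other 3; without it the log2 fold change was 2.24 and the call was lost (adjusted p = 0.0533). Rspo1 (-0.34 ± 0.25, adjusted p = 0.437) and Rspo3 (-0.13 ± 0.24, adjusted p = 0.789) had log2 fold changes below 0 and were not called.

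Rspo4 had the largest log2 fold change among the 4 called genes in size. The 250 bases before its RefSeq start, on the plus strand of chr2:151842677-151842926 (GRCm38.p6, the assembly of mm10), are shown as the promoter of that gene. The window was searched on both strands for AAAGGTCA, the site bound by Nr4a1 as a monomer, and for CTTTGAT, a core site of TCF/LEF factors, and these letters are not in it, so it holds no capitals.
Rspo4: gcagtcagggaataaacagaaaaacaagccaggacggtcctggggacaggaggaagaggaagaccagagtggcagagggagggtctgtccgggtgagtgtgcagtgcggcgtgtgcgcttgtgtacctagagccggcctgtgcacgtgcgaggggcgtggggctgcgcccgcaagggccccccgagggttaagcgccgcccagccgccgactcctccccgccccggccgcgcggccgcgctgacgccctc
Over all Wnt genes, RefSeq gave 35 such windows for 32 genes; AAAGGTCA was in 0 of them, beside 1.34% of 32851 windows of all genes, and CTTTGAT was in 2 of them (5.71%), beside 3.21% of all. A match is a run of letters and not a shown binding site.

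**Figure D2:**
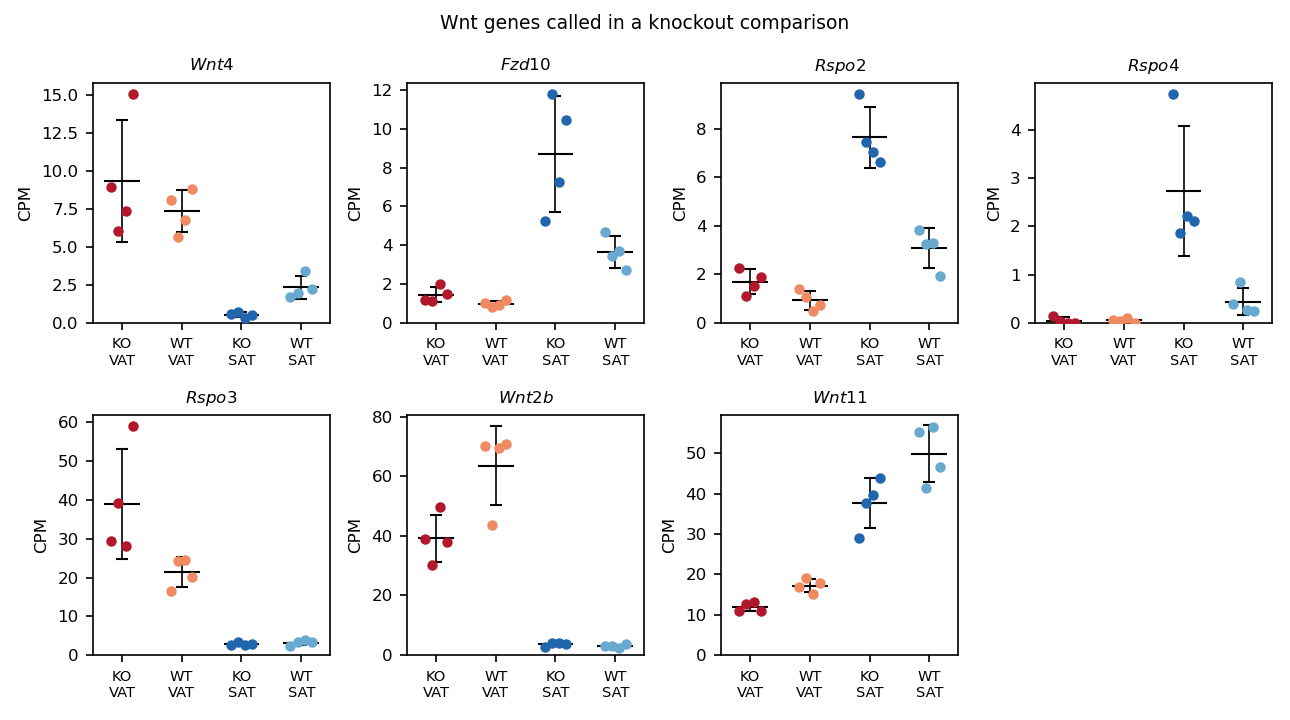
CPM per library (points) with the group mean (long bar) and SD (error bar) of the 7 Wnt genes called in at least 1 knockout comparison, in KO VAT, WT VAT, KO SAT and WT SAT; axes start at 0 and differ between panels. Wnt4 lies low in KO SAT, Fzd10, Rspo2 and Rspo4 are highest in KO SAT, and the Rspo3, Wnt2b and Wnt11 differences between KO VAT and WT VAT are smaller than the distance between depots.

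Among subcutaneous genes that missed the threshold, the ligand Wnt11 came closest after Wnt6. It had 29.1, 37.8, 39.8 and 43.9 CPM in KO SAT, against 55.3, 41.5, 56.5 and 46.6 CPM in WT SAT, and the groups overlapped. Its log2 fold change was -0.41 ± 0.12 (adjusted p = 0.0579), and it was called without WT SAT replicate 2 (0.03) and by DESeq2 (0.0243). Axin2, a beta-catenin target that feeds back to break beta-catenin down, averaged 10.3 ± 1.72 CPM in KO SAT and 7.44 ± 1.76 CPM in WT SAT (0.46 ± 0.16, adjusted p = 0.107). The intestinal stem cell receptor gene Lgr5 averaged 10.1 ± 4.96 CPM in KO SAT and 5.85 ± 2.58 CPM in WT SAT (0.79 ± 0.38, adjusted p = 0.232). The 36 genes not called had log2 fold changes up to 0.79 upward and, leaving aside Wnt7b with its 1 count in KO SAT, down to -1.0.

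In visceral progenitors the knockout had a higher R-spondin gene and lower ligand genes. Rspo3 rose 1.82-fold, Wnt2b fell 1.62-fold and Wnt11 fell 1.44-fold. These 3 of 40 genes, 1 higher and 2 lower (7.5%), stand beside 4.1% of all tested genes called in KO against WT in VAT (2.84% higher and 1.26% lower). The median log2 fold change was 0.01, beside -0.00 over all tested genes. An unadjusted p under 0.05 was seen in 6 of the 40, with no count over all tested genes to set beside it. None of the 3 was called in SAT. Each of these calls was lost when single libraries were left out.

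Rspo3 (chromosome 10, 29452416 to 29535867), an R-spondin needed for placental blood vessels in mice, had 29.5, 39.3, 28.1 and 59.0 CPM in KO VAT, against 16.6, 24.3, 24.5 and 20.2 CPM in WT VAT. All KO VAT libraries were above all WT VAT libraries, and KO VAT replicate 4 was highest. The log2 fold change was 0.86 ± 0.20 (adjusted p = 0.0207). It was 0.59 without KO VAT replicate 4 (adjusted p = 0.0691), and the call was also lost without WT VAT replicate 1 (0.0794) or 4 (0.0664) and in a fit of the VAT libraries alone (0.0563). A 404-base stretch of Rspo3 exons overlaps Gm48159 on the other strand, and the library kit does not mark strand, so reads of the pair cannot be told apart there; parts of Axin2, Fzd5, Fzd6, Sfrp2, Wnt5a, Wnt7b and Wnt11 share exon bases with another gene in the same way.

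KO VAT replicate 4 was also highest in several other Wnt genes and in the sum of epithelial markers. It held 15.1 CPM of Wnt4, 15.5 CPM of Wnt6 and 2.02 CPM of Wnt7b, against highest values of 8.95, 7.79 and 0.785 CPM in the other 3 KO VAT libraries. The summed epithelial markers were 46.4, 50.3, 94.9 and 113 CPM in KO VAT and 54.4, 60.3, 77.0 and 98.6 CPM in WT VAT, with none of 7 tested called. Epcam was at 14.5 CPM and Krt5 at 5.23 CPM in KO VAT replicate 4, against at most 6.73 CPM and 0.0434 CPM in WT VAT. Not all of these markers followed it: Krt7, a large part of the sum, was at 57.7 CPM there and 65.2 CPM in KO VAT replicate 3. Krt14 was at 4.00 to 10.9 CPM in KO VAT and 10.6 to 24.7 CPM in WT VAT. KO VAT replicate 4 was also highest in summed skeletal muscle markers (26.1 CPM, at most 4.51 in other VAT libraries). Acta1 alone gave 23.5 CPM of that sum, and Myh4 was at 0 there. The pericyte and smooth muscle markers were split in this library. Cnn1 (151 CPM, at most 58.6 in other VAT libraries), Acta2, Myh11 and Des were highest there. Rgs5 (602 CPM), Notch3 (301 CPM) and Abcc9 (107 CPM) were lower there than in any other VAT library. Endothelial markers summed to 29.2 to 45.0 CPM in KO VAT and 41.4 to 56.5 CPM in WT VAT, with none of 5 called. Kdr alone gave 17.7 to 28.4 CPM of the sum in KO VAT and 28.5 to 39.8 CPM in WT VAT, and the median log2 fold change of the 5 was 0.28. Adipocyte markers summed to 119.7 to 206 CPM in KO VAT and 54.7 to 67 CPM in WT VAT, with 3 of 4 called higher. The myeloid marker Cd68, 1 of 5, was called higher in KO VAT (0.60 ± 0.16, adjusted p = 0.0491). The part of these cells in the visceral Wnt results was not tested.

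Wnt2b (chromosome 3, 104945272 to 104961921), a beta-catenin ligand close in sequence to Wnt2, had 38.9, 30.1, 49.5 and 38.0 CPM in KO VAT, against 70.2, 43.6, 69.4 and 70.6 CPM in WT VAT. WT VAT replicate 2 lay inside the KO VAT range, while the other 3 WT VAT libraries were above it. The log2 fold change was -0.70 ± 0.16 (adjusted p = 0.0207). The call was lost without KO VAT replicate 2 (adjusted p = 0.0657) or 4 (0.0616), without WT VAT replicate 1 (0.0707), 3 (0.0631) or 4 (0.0688), and in the VAT libraries alone (0.0541). Mesothelial cells cover visceral fat, and their 8 summed markers were 875, 808, 1535 and 1104 CPM in KO VAT and 1266, 807, 1430.0 and 1553 CPM in WT VAT, with none of 8 called. WT VAT replicate 2, the lowest WT VAT library in Wnt2b, was also the lowest of them in this sum and in Rspo1 (75.7 CPM). The part of mesothelial cells in the Wnt2b result was not tested.

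**Figure D3:**
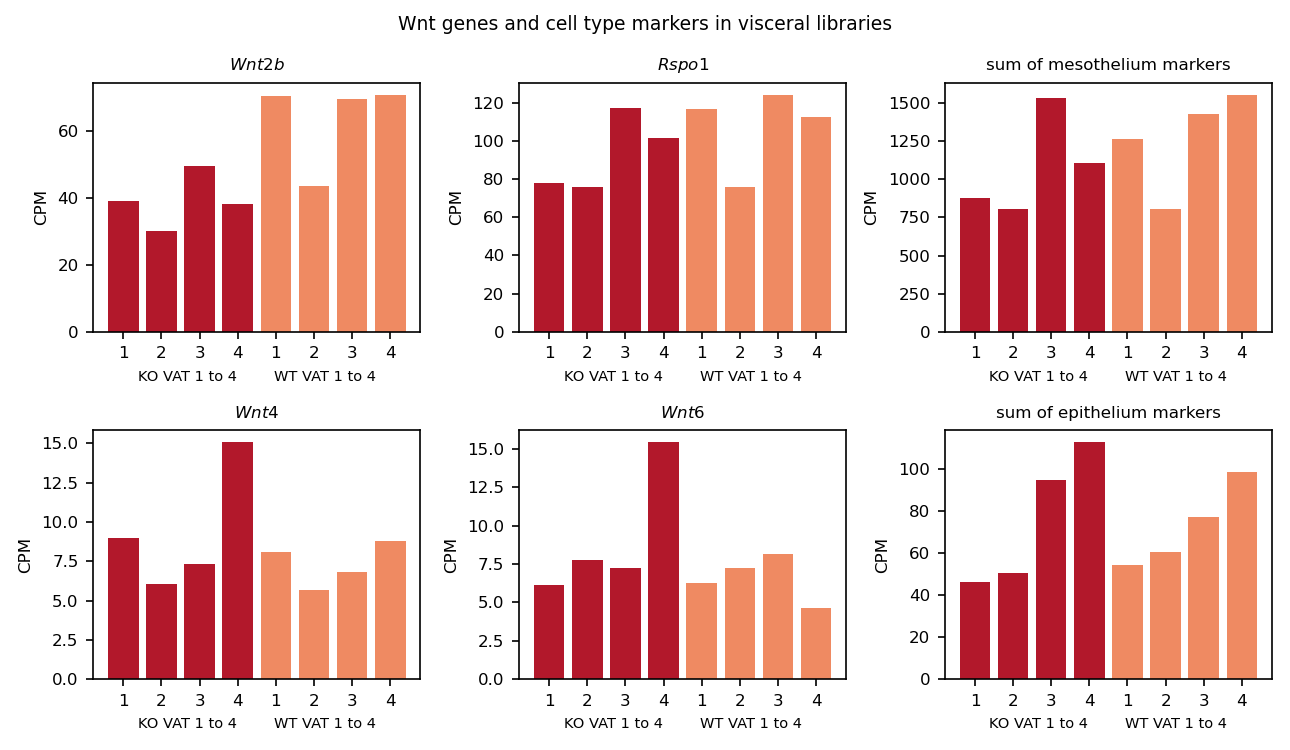
CPM in each visceral library (bars, replicates 1 to 4 of KO VAT and then of WT VAT, from 0) of Wnt2b, Rspo1, Wnt4 and Wnt6, and the summed CPM of 8 mesothelial and 10 epithelial markers. KO VAT replicate 4 is tallest in Wnt4, Wnt6 and the epithelial sum; WT VAT replicate 2 is the lowest WT VAT library in Wnt2b, Rspo1 and the mesothelial sum.

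Wnt11 (chromosome 7, 98835112 to 98855195), a ligand that guides cell movements in zebrafish gastrulation and kidney branching in mice, had 11.0, 12.6, 13.1 and 11.0 CPM in KO VAT, against 16.8, 19.0, 15.2 and 17.9 CPM in WT VAT. All KO VAT libraries were below all WT VAT libraries. The log2 fold change was -0.53 ± 0.13 (adjusted p = 0.0234), close in size to that in SAT. The call was lost without KO VAT replicate 1 (adjusted p = 0.0628) or 4 (0.0791) and without WT VAT replicate 1 (0.0531), 2 (0.0739) or 4 (0.0661). The shared stretch of Wnt11 is 364 bases, with Gm8398. Its promoter window is shown because it is 1 of the 2 that hold the TCF/LEF core, the other being that of Wnt5b, where it lies 71 to 65 bases before the start. The 250 bases on the plus strand of chr7:98834862-98835111 (RefSeq, GRCm38.p6) hold ATCAAAG, the opposite-strand reading of CTTTGAT, 51 to 45 bases before the start, in capitals.
Wnt11: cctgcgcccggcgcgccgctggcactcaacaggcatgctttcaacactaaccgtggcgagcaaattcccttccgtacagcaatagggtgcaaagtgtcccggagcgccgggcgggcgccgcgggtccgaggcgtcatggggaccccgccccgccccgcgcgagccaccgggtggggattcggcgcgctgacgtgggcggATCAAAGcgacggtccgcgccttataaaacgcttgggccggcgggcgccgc

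The other visceral genes did not pass the test. Rspo2 had 2.27, 1.12, 1.5 and 1.90 CPM in KO VAT, against 1.41, 1.08, 0.495 and 0.739 CPM in WT VAT, with overlapping groups and a log2 fold change of 0.88 ± 0.30 (adjusted p = 0.118, and 0.0439 by DESeq2). Fzd10 had 1.20, 1.12, 1.98 and 1.48 CPM in KO VAT, against 1.04, 0.830, 0.930 and 1.17 CPM in WT VAT, a log2 fold change of 0.54 ± 0.27 (adjusted p = 0.315). Wnt4 had 8.95, 6.05, 7.34 and 15.1 CPM in KO VAT, against 8.09, 5.69, 6.81 and 8.81 CPM in WT VAT (0.35 ± 0.25, adjusted p = 0.537); without KO VAT replicate 4 its log2 fold change was 0.02 (adjusted p = 0.983). Rspo4 was near its detection limit in VAT, with 9 counts over the 4 KO VAT libraries and 10 over the 4 WT VAT libraries. None of the 7 tested inhibitors was called in either depot. Of these, Sfrp4 had the log2 fold changes farthest from 0, -0.54 ± 0.34 in VAT and 0.65 ± 0.33 in SAT. The 37 genes not called had adjusted p between 0.118 and 0.998.

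**Figure D4:**
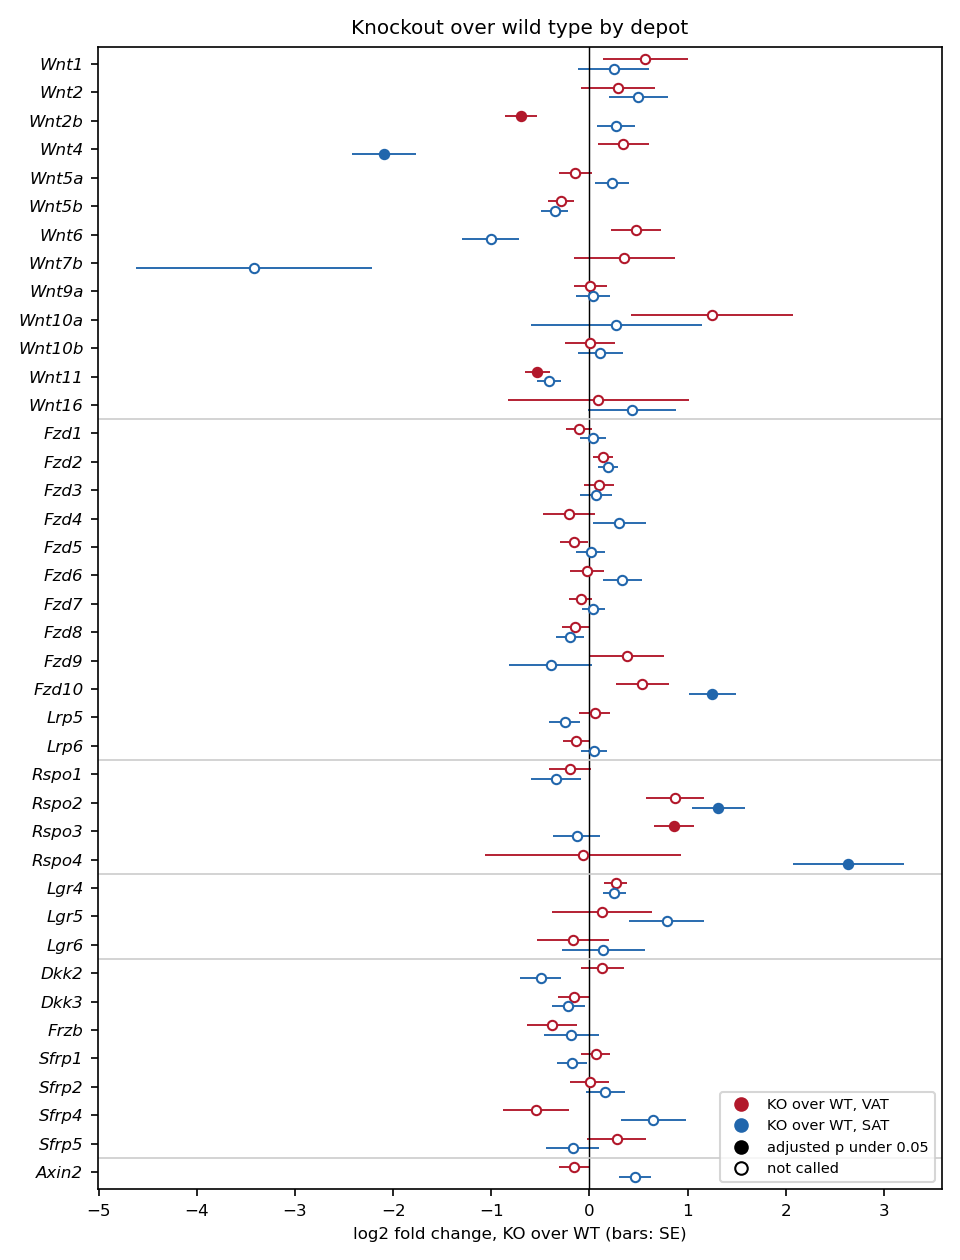
Log2 fold change of KO over WT (points, x axis) with its SE (bars) for the 40 tested Wnt genes (rows), in VAT (red) and SAT (blue); filled points have adjusted p under 0.05. Wnt4, Fzd10, Rspo2 and Rspo4 are filled in SAT and Rspo3, Wnt2b and Wnt11 in VAT; the far-left Wnt7b point in SAT rests on 1 count in KO SAT.

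The KO effect differed between depots for Wnt4. The difference of its log2 fold changes, VAT minus SAT, was 2.44 ± 0.41 (adjusted p = 0.0226), being 0.35 in VAT and -2.09 in SAT; without KO VAT replicate 4 it was 2.11 (adjusted p = 0.0335). It was the 1 call among the 40 genes (2.5%), beside 0.267% of all tested genes (0.131% higher and 0.137% lower). An unadjusted p under 0.05 was seen in 8 of the 40, again with no count over all tested genes beside it. The size stayed between 2.28 and 2.46 where the call was lost, which happened without KO SAT replicate 3 (2.28, adjusted p = 0.0562) or 4 (2.43, 0.0561), WT SAT replicate 4 (2.46, 0.0528) or WT VAT replicate 3 (2.41, 0.0592). Wnt6 (1.48 ± 0.39), Wnt2b (-0.97 ± 0.25) and Rspo3 (0.99 ± 0.31) had the next lowest p-values and missed the threshold (adjusted p = 0.0983, 0.0983 and 0.154); DESeq2 called all 3 (0.0136, 0.0157 and 0.0461). Wnt2b also passed without KO VAT replicate 3 (adjusted p = 0.0463) or WT VAT replicate 2 (0.0485). For Fzd10, Rspo2, Rspo4, Rspo3, Wnt2b and Wnt11 the knockout effects of the 2 depots were therefore not shown to differ, although each passed in 1 depot. Among markers of other cells, the difference was called for the endothelial Kdr (-1.77 ± 0.33, adjusted p = 0.0351) and the adipocyte Plin1 (1.32 ± 0.24, adjusted p = 0.0292). Kdr ran against its list, whose 5 markers had a median difference of 0.42, while the median of the 4 adipocyte markers was 1.15. The part of these cells in the Wnt4 result was not tested.

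More of these genes were called by depot than by genotype. In WT progenitors 14 genes were higher and 14 lower in VAT than in SAT, 28 of 40 (70%) beside 36.7% of all tested genes (19.1% higher and 17.6% lower). In KO progenitors 16 were higher and 14 lower, 30 of 40 (75%) beside 43.3% of all (23.3% higher and 20% lower). The same 14 genes were higher and the same 14 lower in both genotypes; Dkk3 and Fzd3 were called higher in KO alone, with log2 fold changes of 0.45 and 0.44 in KO and 0.39 and 0.41 in WT. The depot effects of these 2 genes were not shown to differ between genotypes (adjusted p of the difference = 0.927 and 0.96). In KO, the call of Dkk3 was lost without SAT replicate 1, 2 or 4 or VAT replicate 1, 3 or 4 (adjusted p from 0.0513 to 0.125), that of Fzd3 without SAT replicate 1, 2 or 4 or VAT replicate 2 or 4 (0.0562 to 0.093) or with no low-count filter (0.0831), and that of Lrp5 without SAT replicate 1 or 3 or VAT replicate 3 or 4 (0.0555 to 0.121). In WT, the call of Fzd9 was lost without SAT replicate 1, 3 or 4 or VAT replicate 1, 2 or 3 (0.0828 to 0.121), with no low-count filter (0.0642) or in the WT libraries alone (0.0546). DESeq2 called Fzd3 in WT (0.0415), and the KO libraries alone gave calls of Fzd4 (-0.46, adjusted p = 0.0242) and Lrp6 (-0.29, adjusted p = 0.0284), both lower in VAT. Single libraries left out of WT also brought calls of Dkk3 (without VAT replicate 2, adjusted p = 0.0182), Fzd3 (VAT replicate 1, 0.0241), Fzd5 and Fzd7 (SAT replicate 2, 0.0427 and 0.0136) and Fzd8 (SAT replicate 3, 0.0462). The median log2 fold change of the 40 was 0.07 in KO and 0.15 in WT, beside 0.02 and -0.00 over all tested genes.

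The ligands divided between the depots. Wnt2 had 2.19, 1.36, 4.62 and 2.79 CPM in KO VAT, against 75.4, 87.7, 64.1 and 75.7 CPM in KO SAT. In WT it had 1.80, 1.45, 1.31 and 4.36 CPM in VAT, against 50.6, 52.3, 74.6 and 37.0 CPM in SAT, and the log2 fold changes were -4.79 ± 0.37 in KO (adjusted p = 1.58e-08) and -4.58 ± 0.37 in WT (adjusted p = 3.4e-08). Its near relative Wnt2b ran the other way, so that each depot had one of the pair at its higher level. Beside the visceral levels given above, Wnt2b had 2.83, 4.15, 4.00 and 3.53 CPM in KO SAT and 2.97, 2.94, 2.47 and 3.56 CPM in WT SAT (3.43 ± 0.19 in KO, adjusted p = 3.04e-10; 4.40 ± 0.20 in WT, adjusted p = 2.99e-11). Wnt10b had 4.99, 3.56, 6.67 and 2.74 CPM in KO VAT, against 24.7, 28.1, 33.3 and 30.3 CPM in KO SAT, and 4.92, 5.31, 3.05 and 4.67 CPM in WT VAT, against 35.5, 27.9, 17.6 and 26.5 CPM in WT SAT. Wnt11 was lower in VAT in both genotypes (-1.66 ± 0.13 in KO and -1.54 ± 0.13 in WT), as were the low-level genes Wnt1 and Wnt16; Wnt16 held 6 counts in KO VAT against 257 in KO SAT, and 6 in WT VAT against 163 in WT SAT. Besides Wnt2b, the ligands Wnt4, Wnt5b, Wnt6, Wnt7b and Wnt9a were higher in VAT in both genotypes. Wnt6 had 6.11, 7.79, 7.21 and 15.5 CPM in KO VAT and 6.29, 7.22, 8.14 and 4.65 CPM in WT VAT, all above its subcutaneous levels given above. Wnt5a and Wnt10a were called in neither genotype.

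Some ligand genes lie side by side. Wnt1 and Wnt10b, 11707 bases apart on chromosome 15, were both lower in VAT. Wnt6 and Wnt10a, 6194 bases apart on chromosome 1, were a gene higher in VAT and a gene at 0.101 to 0.528 CPM in KO VAT and 0 to 0.218 CPM in WT VAT that was not called. The Wnt1 and Wnt10b pair lies 2.46 and 2.48 Mb from Nr4a1, and neither gene was called in a knockout comparison. Farther off on the same chromosome lie genes that were called: Rspo2 at 58.08 Mb from Nr4a1 and, among the pathway genes described below, Myc at 39.26 Mb and Cthrc1 at 62.17 Mb.

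**Figure D5:**
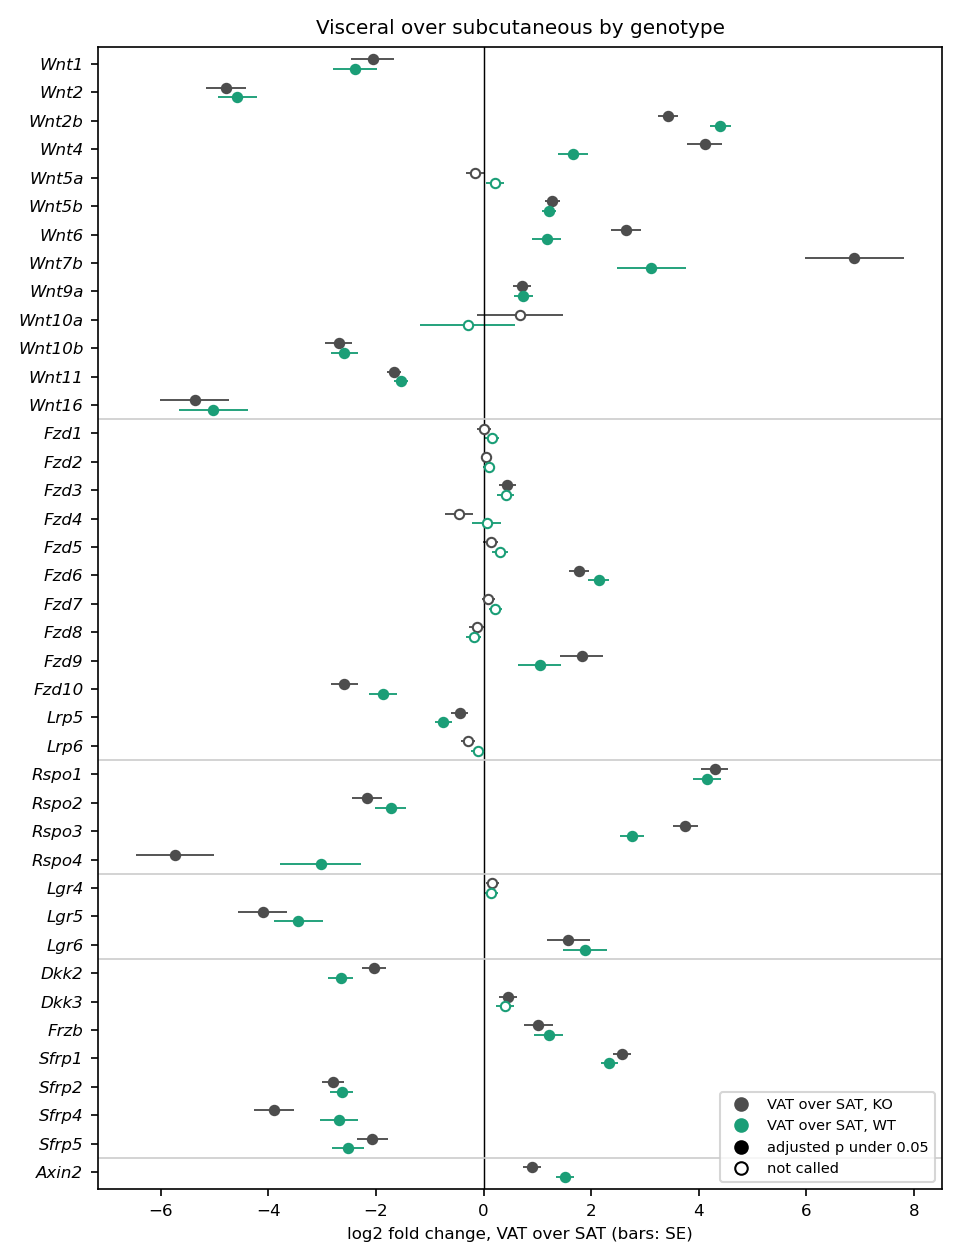
Log2 fold change of VAT over SAT (points, x axis) with its SE (bars) for the 40 tested Wnt genes (rows), in KO (grey) and WT (green); filled points have adjusted p under 0.05. The 2 genotypes lie on the same side for the 28 genes called in both, Wnt2 and Wnt2b lie on opposite sides, and the most abundant Frizzled genes sit near 0; the KO point of Wnt7b rests on 1 count in KO SAT.

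Receptors had the smallest share of called genes, 5 of 12 in KO and 4 of 12 in WT, near the 43.3% (KO) and 36.7% (WT) of all tested genes. Calls covered 11 of 13 ligands in each genotype and 7 of 7 (KO) and 6 of 7 (WT) inhibitors. Of the 12 receptor and co-receptor genes, Fzd6 and Fzd9 were higher and Fzd10 and Lrp5 lower in VAT in both genotypes, while Fzd1, Fzd2, Fzd4, Fzd5, Fzd7, Fzd8 and Lrp6 were called in neither when all 16 libraries were fitted. Fzd6 averaged 4.78 ± 0.80 CPM in KO VAT, against 1.39 ± 0.126 CPM in KO SAT, and 4.87 ± 1.35 CPM in WT VAT, against 1.10 ± 0.112 CPM in WT SAT. Fzd1, the highest receptor per kilobase, had a log2 fold change of 0.01 ± 0.13 in KO and 0.16 ± 0.13 in WT. Fzd10 averaged 1.44 ± 0.390 CPM in KO VAT, against 8.69 ± 3.0 CPM in KO SAT, and 0.992 ± 0.145 CPM in WT VAT, against 3.64 ± 0.817 CPM in WT SAT.

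All 4 R-spondin genes were called in both genotypes, in pairs of opposite direction. Rspo1, which directs ovary formation in mice, had 78.0, 75.9, 117 and 102 CPM in KO VAT, against 3.65, 7.10, 3.84 and 4.47 CPM in KO SAT (4.29 ± 0.26, adjusted p = 8.58e-10). In WT it had 117, 75.7, 124 and 112 CPM in VAT, against 6.65, 4.82, 8.58 and 4.22 CPM in SAT (4.15 ± 0.25, adjusted p = 1.24e-09). Rspo3 had 2.69, 3.29, 2.69 and 2.90 CPM in KO SAT and 2.26, 3.27, 3.91 and 3.30 CPM in WT SAT, and was higher in VAT by 3.75 ± 0.23 on the log2 scale in KO and 2.76 ± 0.23 in WT. Rspo2 and Rspo4 were lower in VAT, Rspo2 by a log2 fold change of -2.17 ± 0.28 in KO and -1.73 ± 0.29 in WT. Rspo4 held 68 counts in WT SAT and 10 in WT VAT, and a fit of the WT libraries alone gave no test of it. Among the R-spondin receptors, Lgr4 was called in neither genotype, Lgr5 was lower in VAT (-4.11 ± 0.46 in KO and -3.45 ± 0.46 in WT) and the low-level Lgr6 was higher (1.57 ± 0.40 and 1.89 ± 0.40).

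The 7 tested inhibitors were split between the depots. In KO 4 were lower and 3 higher in VAT, beside 20% lower and 23.3% higher of all tested genes. In WT 4 were lower and 2 higher, beside 17.6% and 19.1%. Sfrp1 had 468, 581, 396 and 477 CPM in KO VAT, against 68.3, 89.7, 84.7 and 80.5 CPM in KO SAT, and 478, 575, 466 and 321 CPM in WT VAT, against 103, 83.8, 81.0 and 97.0 CPM in WT SAT. Sfrp2 had 158, 115, 172 and 93.1 CPM in KO VAT, against 776, 977, 911 and 1078 CPM in KO SAT, and 173, 148, 85.2 and 131 CPM in WT VAT, against 983, 803, 810.5 and 751 CPM in WT SAT. For both genes no VAT library overlapped a SAT library: Sfrp1 was higher in VAT (2.57 ± 0.16 in KO and 2.33 ± 0.16 in WT) and Sfrp2 lower (-2.80 ± 0.21 and -2.64 ± 0.21). Sfrp4 had 26.7, 18, 34.0 and 18 CPM in KO VAT, against 267, 453, 324 and 389 CPM in KO SAT, and 24.5, 28.5, 16.9 and 70.9 CPM in WT VAT, against 213, 219, 286 and 194 CPM in WT SAT (-3.89 ± 0.37 in KO and -2.69 ± 0.35 in WT). Sfrp5 had 4.85, 1.63, 3.31 and 3.33 CPM in KO VAT, against 17.4, 12.9, 12.1 and 12.8 CPM in KO SAT, and 1.76, 2.72, 2.97 and 3.38 CPM in WT VAT, against 10.2, 18, 22.2 and 12 CPM in WT SAT (-2.07 ± 0.29 and -2.52 ± 0.29). The Lrp-binding inhibitor Dkk2 had 18.5, 30.0, 16.9 and 19.5 CPM in KO VAT, against 57.9, 99.7, 106 and 83.4 CPM in KO SAT, and 20.7, 21.2, 20.7 and 15.0 CPM in WT VAT, against 134, 79.4, 146 and 131 CPM in WT SAT (-2.03 ± 0.22 and -2.66 ± 0.23). Sfrp4, Sfrp5 and Dkk2 were each lower in every VAT library than in any SAT library. Frzb was higher in VAT at low levels, and Dkk3 was called higher in VAT in KO alone, as given above. Axin2 was higher in VAT, averaging 19.2 ± 2.41 CPM in KO VAT against 10.3 ± 1.72 CPM in KO SAT, and 21.4 ± 2.54 CPM in WT VAT against 7.44 ± 1.76 CPM in WT SAT (0.90 ± 0.16 in KO, adjusted p = 0.000186; 1.52 ± 0.16 in WT, adjusted p = 1.06e-06).

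Markers of other cells moved with depot too. The mesothelial sum was 808 to 1535 CPM in KO VAT, against 6.63 to 9.87 CPM in KO SAT, and 807 to 1553 CPM in WT VAT, against 7.35 to 12.2 CPM in WT SAT, with all 8 markers called higher in VAT in both genotypes. The epithelial sum was 46.4 to 113 CPM in KO VAT, against 4.07 to 5.65 CPM in KO SAT. In WT it was 54.4 to 98.6 CPM in VAT, against 4.38 to 8.56 CPM in SAT. Krt7 alone gave 34.1 to 65.2 CPM of the sum in KO VAT and 28.9 to 63.9 CPM in WT VAT. Of the 7 tested epithelial markers, 6 were higher in VAT in KO and 3 in WT. Schwann cell markers ran the other way, at 38.0 to 56.2 CPM in KO VAT, against 366 to 502 CPM in KO SAT, and 54.0 to 70.4 CPM in WT VAT, against 421 to 764 CPM in WT SAT. Of the 10 progenitor markers, 6 were lower and 1 higher in VAT in KO, and 8 were lower and 1 higher in WT. Endothelial markers were higher in VAT for 4 of 5 in KO and 3 of 5 in WT, pericyte and smooth muscle markers for 6 of 8 and 5 of 8, and myeloid markers for 3 of 5 in each genotype. Adipocyte markers were higher in VAT for 4 of 4 in KO and 0 of 4 in WT (median log2 fold changes 1.26 and 0.07). Beside these counts, 43.3% of all tested genes were called in KO and 36.7% in WT. The part of these cells in the depot differences of the Wnt genes was not tested.

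The other pathway genes were 90 in 6 lists (ligand secretion and breakdown, other surface regulators, the beta-catenin cascade, nuclear TCF/LEF partners, beta-catenin targets and planar polarity), of which 87 were tested. In SAT 3 were higher and 1 lower (4.6%, beside 5.89% of all tested genes), and in VAT 4 were higher and 2 lower (6.9%, beside 4.1%). Cthrc1, a secreted protein that binds Wnt and Frizzled proteins, rose in both depots, with 7.22, 8.25, 8.11 and 6.66 CPM in KO VAT, against 2.95, 4.61, 3.58 and 5.47 CPM in WT VAT (0.86 ± 0.16, adjusted p = 0.0044). In SAT it had 22.1, 23.0, 23.0 and 21.1 CPM in KO, against 8.79, 10.1, 13.6 and 10.7 CPM in WT (1.05 ± 0.16, adjusted p = 0.000571). Bambi, a decoy receptor of the TGF-beta family and a beta-catenin target, fell in both depots, with 34.5 to 45.0 CPM in KO VAT, against 48.3 to 54.9 CPM in WT VAT (-0.39 ± 0.08, adjusted p = 0.00913), and 9.94 to 11.8 CPM in KO SAT, against 15.1 to 16.1 CPM in WT SAT (-0.55 ± 0.08, adjusted p = 0.000797). KO and WT libraries of either gene did not overlap in either depot, and both calls held with each library left out in turn.

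The remaining calls of these lists were lost in some of the fits that left out 1 library. In SAT they were the Dishevelled-binding inhibitor Cxxc4 (1.15 ± 0.30, adjusted p = 0.0296) and the polarity gene Prickle2 (0.42 ± 0.11, adjusted p = 0.0323), each called in 3 of 8 such fits (highest adjusted p 0.0981 and 0.0972). In VAT the glypican Gpc4 (0.28 ± 0.06, adjusted p = 0.0204) was called in 5 of 8 (highest 0.0689), the co-repressor Tle2 (0.40 ± 0.10, adjusted p = 0.0253) in 3 of 8 (0.0856), Myc (-0.38 ± 0.10, adjusted p = 0.0498) in 2 of 8 (0.154) and the cyclin gene Ccnd1 (0.48 ± 0.12, adjusted p = 0.0367) in 0 of 8 (0.121). Of the 19 listed beta-catenin targets, 1 was lower in SAT (Bambi), beside 2.43% lower and 3.46% higher of all tested genes. In VAT 1 was higher (Ccnd1) and 2 lower (Bambi and Myc), beside 2.84% higher and 1.26% lower of all. Only the Bambi calls held with each library left out in turn. By depot, 25 of the 87 were higher and 22 lower in VAT in KO (54%, beside 43.3% of all tested genes), and 23 were higher and 19 lower in WT (48.3%, beside 36.7%).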

How the data were processed

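The authors deposited a table of read counts per gene symbol and library, whole numbers that were used as deposited. The tools named, per the submitters' processing notes, are FastQC, STAR, featureCounts and DESeq, and the genome build is mm10; no source used here gives versions, annotation or strand setting. A second deposited table of rescaled values was not used. None of the 38720 rows lacked a name; 27 had date-shaped names and were kept in totals.

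Genes were kept by filterByExpr (16842) and fitted in R 4.3.3 with edgeR 4.0.16 (TMM scaling, quasi-likelihood test, 1 coefficient per group, all 16 libraries, 12 residual degrees of freedom, biological coefficient of variation 0.156). P-values were Benjamini-Hochberg adjusted over all tested genes within a comparison. Each SE is the size of the log2 fold change over the square root of its F statistic. The script was tested on simulated data. Alternatives were DESeq2 1.42.0, median-of-ratios scaling, no filter, only the groups compared, a replicate block, and each library left out. No 2 libraries of a group agreed within sampling noise. Exon lengths came from GENCODE vM21 (GRCm38) and promoter windows from RefSeq (GRCm38.p6). Figures used matplotlib 3.10.9.

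The genes and lists were chosen with earlier results of these data known. Per-library values are given for every gene called in a knockout comparison or in their difference and, by depot, for up to 12 called genes of largest change with a mean of at least 5 CPM. Of each pathway list up to 5 genes with the smallest p in each knockout comparison could be named, and those called are. Other genes, such as Axin2, Lgr5, Wnt16 and Fzd6, were named after their values were seen. The result of 1 marker gene is not reported here.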

Additional observations from a re-analysis of the deposited data

Results flagged for a closer look

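In each group of 4 libraries, the highest or lowest value was compared with the others; 10 of 160 sets of 4 (40 genes in 4 groups) held a library whose gap to its nearest neighbour exceeded Dixon's 95% critical share of the range, and chance gives about 1 in 20. In KO VAT, replicate 4 was high in Wnt7b (2.02 CPM, others 0.629 to 0.785). In WT VAT, replicate 2 was low in Wnt2b (43.6 CPM, others 69.4 to 70.6) and high in Lgr5 (1.06 CPM, others 0.297 to 0.408). WT VAT replicate 3 was high in Fzd6 (6.89 CPM, others 4.03 to 4.42), and replicate 4 was low in Dkk2 (15.0 CPM, others 20.7 to 21.2) and high in Wnt2 (4.36 CPM, others 1.31 to 1.80). In KO SAT, replicate 1 was high in Rspo4 (4.73 CPM, others 1.87 to 2.21) and Sfrp5 (17.4 CPM, others 12.1 to 12.9), low in Lgr6 (0.192 CPM, others 0.437 to 0.467), and held the only count of Wnt7b (0.024 CPM, others 0).

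The knockout effect on Wnt4 differed between the depots, by 2.44 on the log2 scale (VAT minus SAT), tested as a difference of effects in the edgeR fit.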

How the results depend on the processing

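Under median-of-ratios scaling and without the low-count filter, the counts of called genes stayed within 1.5 times the values reported, and no alternative reversed the direction of a call among the genes described by library. Log2 fold changes that were not called could cross 0, such as that of Rspo4 in VAT (-0.07, and -1.60 to 0.46 with 1 library left out). DESeq2 called more genes: in SAT 4 Wnt genes lower and 1691 genes in all (992 in edgeR), in VAT 2 Wnt genes higher and 1238 in all (690), and for the difference of the effects 3 Wnt genes higher, 1 lower and 527 in all (45). With only the groups compared in the fit, 2 Wnt genes were lower in SAT with 509 genes in all, and 0 were higher and 1 lower in VAT. Leaving out 1 library at a time gave, in SAT, 2 to 3 Wnt genes higher and 1 to 2 lower (469 to 1015 genes in all). In VAT it gave 0 to 1 higher and 0 to 2 lower (412 to 625), and for the difference 0 to 1 higher and 0 to 1 lower (7 to 149). By depot it gave 14 to 16 higher and 13 to 14 lower in KO (6593 to 6968) and 13 to 16 higher and 14 to 15 lower in WT (5395 to 6328). With the replicate number as a block, the Wnt calls were 3 higher and 1 lower in SAT, 1 higher and 2 lower in VAT and 1 higher for the difference, whose calls over all genes dropped to 14; by depot Fzd9 was lost in WT (adjusted p = 0.0714). Over 72 pairs of libraries from different groups with different numbers, r lay between -0.294 and 0.254. Over 24 same-numbered pairs r lay between -0.16 and 0.176, and 6 of 16 libraries correlated best with their own number. Those pairs include KO with WT libraries, which cannot come from the same animal. Between SAT and VAT of the same genotype, r for numbers 1 to 4 was 0.144, 0.119, 0.113 and -0.0414 in WT. In KO it was 0.0429, -0.0399, 0.0536 and 0.044. This check therefore cannot show whether same-numbered SAT and VAT libraries share an animal, and the main fit did not pair them. Low depth limits Wnt7b, Rspo4 in VAT, Wnt16 in VAT and the 9 untested genes. The cause of these changes was not tested.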
